A study of Mus musculus with 8 samples.

Results

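The 26 genes described here make, package, clear and detect the inhibitory transmitters GABA and glycine. They were chosen by name, and each matched exactly 1 of the 25815 genes in the deposited count table. All 26 passed the filter on low counts and were among the 16810 genes tested. Poly(A)-selected RNA of whole brain was sequenced from 5 mutant mice labelled Cstf2D50A and 3 wild-type littermates, all killed at postnatal day 50 and untreated. The mutation puts alanine in place of aspartate at residue 50 of CSTF2, an RNA-binding subunit of the cleavage stimulation factor that acts at polyadenylation sites. Mutant and wild-type mice came from 1 colony on a C57BL/6NCrl background that was bred to that strain over 4 generations and then kept closed. The groups are called D50A and WT, and libraries are numbered in order of deposit. The labels do not give sex, litter or batch, nor whether the mutant mice carried a wild-type allele.

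GABA is made from glutamate by the decarboxylases GAD67 and GAD65, loaded into vesicles together with glycine by 1 shared transporter, and cleared by uptake into neurons and astrocytes. GABA-A and glycine receptors are pentameric chloride channels anchored by gephyrin, whereas GABA-B receptors are G-protein-coupled dimers. Glycine is the main fast inhibitory transmitter of the brainstem and spinal cord, while GABA dominates in the forebrain. Whether these channels inhibit depends on the chloride gradient, which 2 cotransporters set in opposite directions.

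The libraries held 13675945 to 24802272 counts in D50A and 16455364 to 20551906 in WT. Each library stands for 1 mouse, and the error used throughout is the spread among those libraries, which may in part be technical. Mitochondrially encoded genes took 11.9% of counts in D50A 3, and 4.08% to 5.14% elsewhere. The 9 cerebellar granule cell markers summed to 734 to 1011 CPM (counts scaled to library size) in D50A 2 to 5 and to 174 CPM in D50A 1, and to 183 to 189 CPM in the WT libraries. Gabra6, the defining granule cell subunit, had 0 counts in D50A 1 and in WT 1, 6 in WT 2 and 2 in WT 3, so these libraries labelled total brain lacked its transcript or nearly did. Pan-neuronal markers (6 of 6 tested) summed to 4363 to 4700 CPM across D50A and 4527 to 4724 across WT. Cstf2 itself was at 108 ± 25.3 CPM in D50A (SD, n = 5) and 127 ± 6.66 CPM in WT (SD, n = 3), with an edgeR adjusted p of 0.837.

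None of the GABA and glycine genes was called between D50A and WT by the main test, and 1 of them stood far from the others. edgeR's quasi-likelihood test called 0 of 26 members at an adjusted p under 0.05, as it did 0% of the 16810 genes tested. At an unadjusted p under 0.05 the test held 1 member, Slc6a5, beside 420 genes or 2.5% in all (1.64% higher and 0.863% lower). DESeq2 called 1 member, Slc6a5, against 0.155% of all genes with an adjusted p called higher and 0.03% lower. limma-voom, weighting samples by quality, called 2 members, Slc6a5 and Gabrd, against 1.87% of genes called higher and 1.2% lower. Without D50A 1, edgeR called 0 members and 0.156% of genes, all higher. Slc6a5, the glycine transporter of glycinergic neurons, had a log2 fold change of 3.07. The other 25 lay between -0.45 (Gabrg3) and 0.48 (Gabrd). The members had a median log2 fold change of -0.12, with 8 positive and 18 negative, beside a median of -0.01 over all genes tested. The coefficient of variation of CPM had a median over the 26 genes of 34% in the 5 D50A libraries, 5.93% in D50A 2, 4 and 5 alone, and 4.99% in WT.

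**Figure D1:**
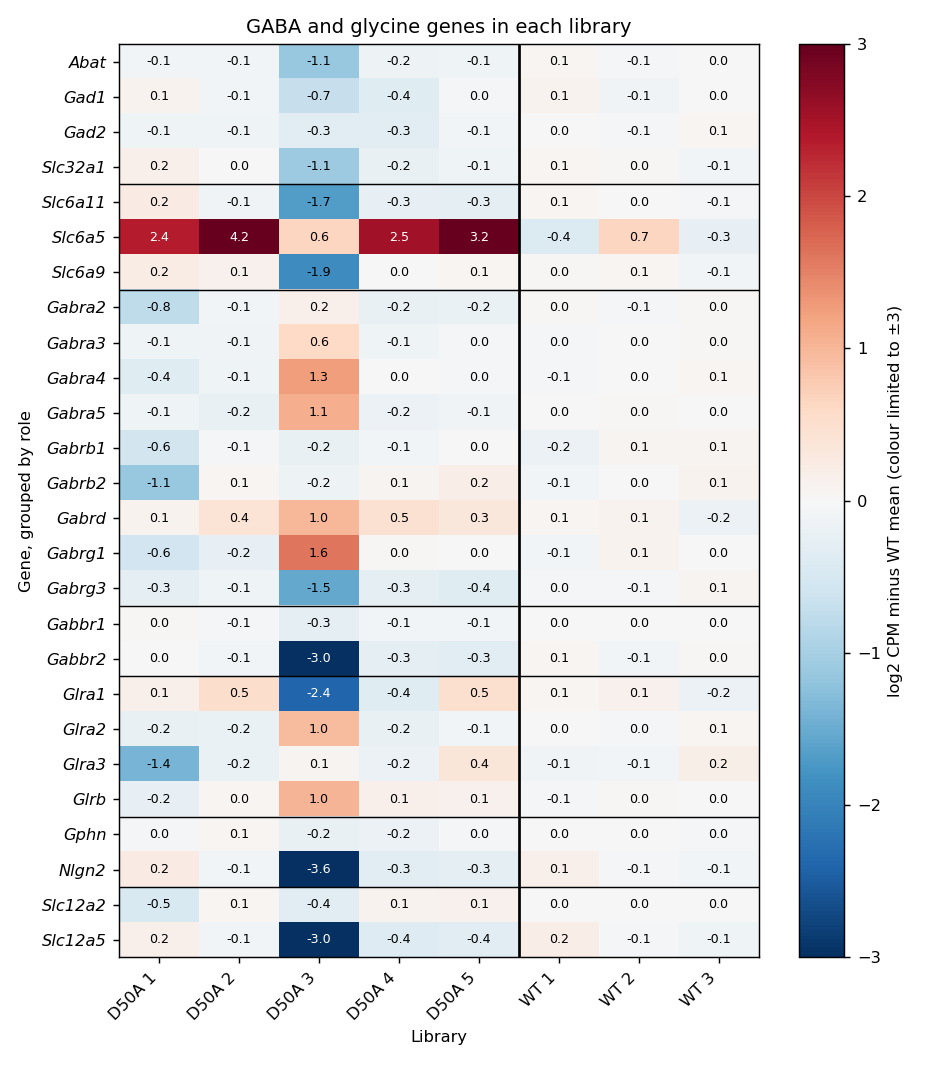
Level of each gene (rows, grouped by role) in each library (columns) as log2 CPM minus the mean log2 CPM of the 3 WT libraries; printed values are these differences and the black vertical line separates D50A from WT. D50A 3 departs most across the genes, down to -3.55 for Nlgn2. Slc6a5 is positive in all 5 D50A libraries and in WT 2 (0.66), which exceeds D50A 3 (0.63).

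Slc6a5 (ENSMUSG00000039728, chr7:49910146-49963856, plus strand of mm10 in GENCODE M21) encodes GlyT2, which returns glycine to the terminals of glycinergic neurons in the brainstem, spinal cord and cerebellum. It had 4.52, 17, 1.3, 5.03 and 7.91 CPM in D50A 1 to 5, against 0.577, 1.32 and 0.653 CPM in WT 1 to 3. D50A 1, 2, 4 and 5 lay above every WT library, and D50A 3 lay just under WT 2, so the groups overlapped by that pair alone. The raw counts behind these levels were 116, 336, 14, 95 and 160 in D50A and 12, 26 and 11 in WT. The mean was 7.16 ± 6 CPM in D50A (SD, n = 5) and 0.849 ± 0.406 CPM in WT (SD, n = 3), an 8.43-fold difference of means. The log2 fold change of 3.07 had an SE of 0.8 (edgeR unadjusted p = 0.00448, adjusted p = 0.837).

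The Slc6a5 call depended on the tool and on the libraries. DESeq2 gave an adjusted p of 0.0121 and a log2 fold change of 3.08 ± 0.7 (SE). limma-voom gave an adjusted p of 0.0123. That method gave weights of 0.0272 to D50A 3 and 0.355 to D50A 1, against 1.83 to 2.55 for the other 6 libraries. In edgeR with D50A 1 and D50A 3 left out, Slc6a5 was at 9.99 ± 6.27 CPM in D50A (SD, n = 3) and 0.849 ± 0.406 CPM in WT (SD, n = 3), for a log2 fold change of 3.56 ± 0.43 (SE) and an adjusted p of 7.12e-05. The D50A libraries kept in that fit had granule cell marker sums of 762 to 1011 CPM, against 183 to 189 CPM in WT. Genotype and cerebellar content thus cannot be told apart in that fit, here or wherever it is used below. Leaving out 1 library at a time moved the log2 fold change between 2.47 (without D50A 2, its highest library) and 3.54 (without WT 2), and edgeR's adjusted p between 0.184 and 0.965.

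Summed levels of transcripts that mark the brainstem separated the groups, though at few counts. The 9 members of a list of anterior Hox genes and Hotairm1 summed to 31, 36, 14, 23 and 21 counts in D50A 1 to 5 and 8, 10 and 4 counts in WT, or 1.04 to 1.83 CPM across D50A and 0.238 to 0.506 across WT. The lowest D50A sum exceeded the highest WT sum. Of the list, Hoxa2, Hoxb2, Hoxd3 and Hoxa4 were at 0 in all 3 WT libraries, but none exceeded 4 counts in any D50A library. Hoxa3 went the other way, with a mean of 0.0304 CPM in D50A and 0.0667 CPM in WT. Hotairm1 was the 1 member with enough counts to be tested (edgeR log2 fold change 1.7, SE 0.33, adjusted p = 0.837). It alone held 13, 16, 9, 15 and 12 of the summed counts by D50A library, against 5, 3 and 4 by WT library. Much of the D50A sums thus came from that 1 gene. With the mean log2 CPM of the granule cell list as a covariate, the Slc6a5 log2 fold change was 2.35 ± 1.03 (SE; edgeR unadjusted p = 0.0565, adjusted p = 0.9999). D50A 1 alone among the mutant libraries had a low score in that fit. The part of hindbrain content in the Slc6a5 difference was not tested. In whole-brain RNA, more cells of a type and more RNA per cell cannot be told apart.

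**Figure D2:**
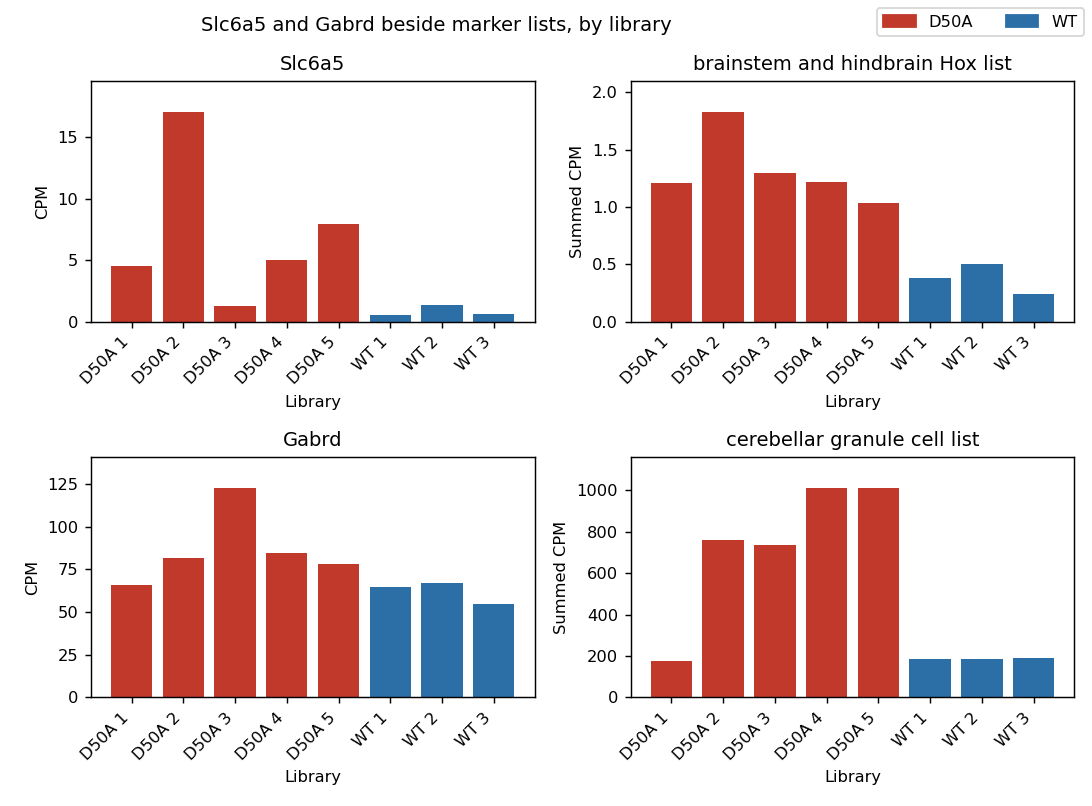
Bars give CPM of Slc6a5 and Gabrd and the summed CPM of the 9 brainstem and hindbrain Hox markers and the 9 cerebellar granule cell markers in each library, D50A in red and WT in blue. D50A 2 has the highest Slc6a5 (17 CPM) and Hox sum (1.83 CPM), but the order of the other D50A libraries differs: D50A 3 has 1.3 CPM of Slc6a5 with a Hox sum of 1.3, and D50A 5 has 7.91 CPM with a Hox sum of 1.04. Gabrd peaks at 123 CPM in D50A 3.

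Other genes of glycine transmission also overlapped between the groups, with smaller log2 fold changes than Slc6a5. Glra1, the adult alpha subunit of the glycine receptor and itself best known from brainstem and spinal cord, had 3.7, 4.82, 0.555, 2.54 and 4.7 CPM in D50A 1 to 5, against 3.46, 3.64 and 2.91 CPM in WT 1 to 3. The D50A values lay on both sides of WT, with D50A 3 lowest at 6 counts. Its log2 fold change was -0.01 ± 0.51 (SE; edgeR adjusted p = 0.993), and 0.28 ± 0.21 (SE) without D50A 1 and D50A 3 (adjusted p = 0.463). Slc6a9, the glycine transporter GlyT1 found mainly on glia, had 43.9, 41.2, 10.2, 37.4 and 39.3 CPM in D50A 1 to 5, against 38.2, 39.3 and 35.5 CPM in WT. Apart from D50A 3, the 2 groups overlapped. The ratio of Slc6a5 to Slc6a9 within a library was 0.103 to 0.413 in D50A and 0.0151 to 0.0335 in WT, with no overlap. D50A 3 was the lowest D50A library for both genes, but it was at 1.53 times the WT mean for Slc6a5 and 0.27 times for Slc6a9. The low Slc6a9 thus raised the ratio in D50A 3, whereas for Slc6a5 alone that library overlapped WT.

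Among the remaining glycine receptor genes, Glrb, the beta subunit that binds gephyrin, was the most abundant. Per kilobase of annotated exon it stood at 55.6 ± 20.9 CPM in D50A (SD, n = 5) and 45.6 ± 1.88 CPM in WT (SD, n = 3), against 0.511 to 6.26 in D50A and 0.572 to 5.7 in WT for the 3 alpha subunits. Glrb had 179, 220, 429, 235 and 234 CPM in D50A 1 to 5, against 202, 219 and 216 CPM in WT. Its D50A libraries lay on both sides of WT, with D50A 1 lowest and D50A 3 highest of all 8. Glra2, the subunit prominent before birth, reached 35 CPM in D50A 3 and 15.5 to 17 CPM in the other D50A libraries, against 17.4 to 18.8 CPM in WT. Glra3 stood at 1.95 CPM in D50A 1 and at 4.56 to 6.82 CPM in the other D50A libraries, against 4.91 to 5.94 CPM in WT. None of the 4 receptor genes passed in edgeR, DESeq2 or limma-voom.

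Genes that make, load and break down GABA all had negative log2 fold changes over all libraries, and none of them passed the threshold. Gad1, which encodes GAD67, was at 274 ± 56.2 CPM in D50A (SD, n = 5) and 312 ± 22.2 CPM in WT (SD, n = 3). Its groups overlapped, with the highest level in D50A 1 (336 CPM) and the lowest in D50A 3 (193 CPM). Gad2, which encodes GAD65, had 216, 218, 191, 191 and 225 CPM in D50A 1 to 5, against 236, 226 and 248 CPM in WT. Every D50A library lay below every WT library for Gad2. Its log2 fold change was -0.19 ± 0.13 (SE; edgeR adjusted p = 0.837). Abat, which encodes the transaminase that breaks down GABA, had 319, 316, 152, 300 and 305 CPM in D50A, against 348, 323 and 336 CPM in WT, again with no overlap. The vesicular transporter gene Slc32a1 had 44.7 CPM in D50A 3 and 82.4 to 107 CPM in the other D50A libraries, against 89.6 to 99.8 CPM in WT.

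Gabrg3 was the other member whose groups did not overlap, so this held for 3 of 26 members (11.5%), all lower in D50A, and for none in the higher direction. Over all genes tested, every D50A library lay below every WT library for 4.24% and above for 3.22%. Without D50A 1 and D50A 3 the log2 fold changes were -0.15 for Gad2, -0.11 for Abat and -0.24 for Gabrg3, with edgeR adjusted p of 0.188, 0.225 and 0.0526. The forebrain GABA neuron list (11 of 12 genes in the table, all 11 tested) showed a median of -0.24 on the log2 fold change scale with 0 called, and without D50A 1 and D50A 3 it held 4 genes called lower and 1 called higher. That list includes parvalbumin, Pvalb, which Purkinje cells also express. Pvalb was the gene called higher and was at 262 ± 286 CPM in D50A (SD, n = 5) and 57.3 ± 6.18 CPM in WT (SD, n = 3). The ratio of Gad1 to Gad2 was 1.01 to 1.55 in D50A and 1.24 to 1.42 in WT.

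Slc6a11, the astrocytic GABA transporter GAT3, had a CPM coefficient of variation of 38.8% in D50A, beside the members' median of 34%. It had 391, 304, 103, 276 and 271 CPM in D50A 1 to 5, against 341, 332 and 316 CPM in WT 1 to 3. D50A 1 was the highest of the 8 libraries, and the other 4 D50A libraries lay below all WT libraries. Its log2 fold change was -0.29 ± 0.35 (SE; edgeR adjusted p = 0.837), and -0.2 ± 0.06 (SE) without D50A 1 and D50A 3 (adjusted p = 0.0546). Astrocyte markers (8 of 8 tested) summed to 4417 to 4554 CPM across D50A and 4642 to 4791 across WT, but 6 of the 8 had positive log2 fold changes (median 0.19). Without D50A 1 and D50A 3, edgeR called S100b, Aldoc and Aqp4 higher and Slc1a2, the astrocytic glutamate transporter, lower.

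Of the 9 GABA-A receptor subunit genes, Gabrd had the highest log2 fold change. Gabrd (ENSMUSG00000029054, chr4:155384980-155398112, minus strand of mm10) encodes delta, a subunit of extrasynaptic receptors that pass tonic current in cerebellar granule cells, dentate granule cells and thalamus. It had 66.2, 81.8, 123, 84.9 and 78.2 CPM in D50A 1 to 5, against 64.7, 67 and 54.6 CPM in WT 1 to 3. D50A 2 to 5 lay above every WT library and D50A 1 lay among them. The mean was 86.7 ± 21.3 CPM in D50A (SD, n = 5) and 62.1 ± 6.59 CPM in WT (SD, n = 3), a log2 fold change of 0.48 ± 0.21 (SE; edgeR adjusted p = 0.837; limma-voom adjusted p = 0.0237). Without D50A 1 and D50A 3, Gabrd rose by 0.41 ± 0.07 on the log2 scale (SE; edgeR adjusted p = 0.00316). DESeq2 gave an adjusted p of 0.905. With 1 library left out the log2 fold change ran from 0.33 (without D50A 3) to 0.59 (without D50A 1), and edgeR's adjusted p from 0.317 to 0.965.

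Gabrd and the summed granule cell list lay above every WT library in the same 4 D50A libraries. Gabrd was highest in D50A 3 (123 CPM), whose granule cell sum of 734 CPM was the lowest of those 4. The 9 markers of that list all had positive log2 fold changes, with a median of 2.18 and 0 called by edgeR, and all 9 were called higher without D50A 1 and D50A 3. With the granule cell score as a covariate the Gabrd log2 fold change was 0.2 ± 0.32 (SE; edgeR unadjusted p = 0.557). In that fit D50A 1 alone among the mutant libraries had a low score. The part of cerebellar content in the Gabrd values was not tested. With D50A 1 and D50A 3 left out, edgeR called 2 of 26 members (7.69%), Slc6a5 and Gabrd, both higher. It called 6.42% of the 16591 genes tested there, 3.36% higher and 3.06% lower, so the members' share was near that of all genes.

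**Figure D3:**
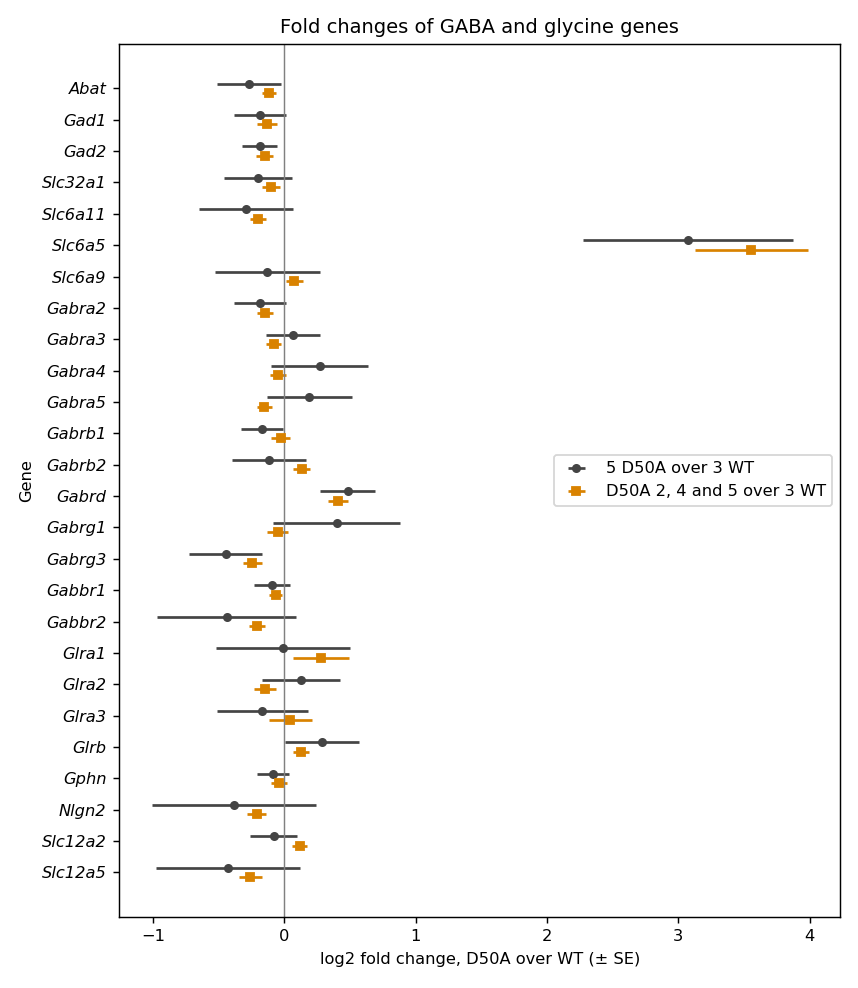
Log2 fold change of D50A over WT with its SE for each gene, from all libraries (circles) and with D50A 1 and D50A 3 left out (squares). Slc6a5 lies at 3.07 and 3.56, Gabrd at 0.48 and 0.41, and the squares of the other 24 genes lie between -0.26 and 0.28.

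The alpha subunits set the pharmacology and location of GABA-A receptors, and Gabra2, Gabra3 and Gabra5 each lay below every WT library in 4 of 5 D50A libraries and above every WT library in D50A 3. Gabra4, whose product pairs with delta in forebrain, had 104, 122, 321, 133 and 132 CPM in D50A 1 to 5, against 128, 134 and 141 CPM in WT. D50A 3 was 2.39 times the WT mean and D50A 1 was the lowest of the 8 libraries. Gabra5, known for tonic inhibition in the hippocampus, had 118 CPM in D50A 3 and 47.4 to 51.6 CPM in the other 4 D50A libraries, against 54.5 to 56.6 CPM in WT. The Gabra5 log2 fold change was 0.19 over all libraries and -0.15 without D50A 3 (edgeR adjusted p = 0.841 and 0.482). Gabra2, the alpha subunit common at forebrain synapses, had 45.6 CPM in D50A 1 and 66.1 to 85.9 CPM in the other D50A libraries, against 73.7 to 78.4 CPM in WT. Gabra3 had 188 CPM in D50A 3 and 113 to 120 CPM in the other D50A libraries, against 121 to 127 CPM in WT. It was the one of these 4 alpha genes with the highest level per kilobase of exon, 33.1 ± 8.33 CPM in D50A (SD, n = 5) and 31.6 ± 0.873 CPM in WT (SD, n = 3).

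Beta and gamma subunit genes showed the same dependence on D50A 1 and D50A 3. Gabrb2, a beta subunit of most synaptic receptors, had 81.4, 187, 162, 191 and 208 CPM in D50A 1 to 5, against 168.7, 177 and 194 CPM in WT. D50A 1 was thus 2.21-fold below the WT mean while the other D50A libraries spanned it. Its log2 fold change was -0.12 ± 0.28 (SE) over all libraries, 0.07 without D50A 1, and -1.12 ± 0.21 (SE) with the granule cell score as a covariate (edgeR unadjusted p = 0.000889, adjusted p = 0.9999), a fit in which D50A 1 is the 1 mutant library with a low score. That fit called 0 members, and 3 others also had an unadjusted p under 0.05, all lower: Glra3 at -1.37, Gabra2 at -0.67 and Gabrb1 at -0.56 on the log2 fold change scale. Gabrg1, a gamma subunit rich in glia and amygdala, had 26.4, 32.9, 120, 40.1 and 39.2 CPM in D50A, against 36.6, 42 and 38.8 CPM in WT, with D50A 3 far above the rest. Gabrg3, a sparse gamma subunit, was lowest in D50A 3, at 15.3 CPM, with 34.6 to 40.6 CPM in the other D50A libraries against 42.6 to 47.1 CPM in WT. Gabrb1 was at 38.7 ± 5.6 CPM in D50A (SD, n = 5) and 43.5 ± 4.25 CPM in WT (SD, n = 3).

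GABA-B receptors need both subunits at the cell surface, GABBR1 binding the ligand and GABBR2 coupling to the G protein. Gabbr1 was the most abundant member per kilobase of exon, at 103 ± 8.19 CPM in D50A (SD, n = 5) and 110 ± 0.396 CPM in WT (SD, n = 3). Gabbr2 had 323, 307, 40.9, 268 and 264 CPM in D50A 1 to 5, against 338, 310 and 331 CPM in WT. D50A 3 was 7.98-fold below the WT mean for Gabbr2 and 1.21-fold below for Gabbr1. The ratio of Gabbr2 to Gabbr1 was therefore 0.0584 in D50A 3 and 0.33 to 0.376 in the other D50A libraries, against 0.364 to 0.398 in WT.

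Postsynaptic anchoring and chloride transport genes split in the same manner. Nlgn2, the neuroligin of inhibitory synapses, had 349, 280, 25.1, 235 and 244 CPM in D50A 1 to 5, against 327, 282 and 279 CPM in WT 1 to 3. D50A 3 was 11.8-fold below the WT mean, the lowest such value of the 26 genes. Gphn, which encodes the scaffold gephyrin, varied little, with 58.7 to 71.1 CPM across D50A and 67.4 to 69.5 across WT.

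Slc12a5 encodes KCC2, the neuronal chloride extruder, and Slc12a2 encodes NKCC1, which loads chloride and is also found in glia. Slc12a5 had 699, 594, 76, 475 and 491 CPM in D50A 1 to 5, against 718, 600 and 568 CPM in WT, with D50A 3 lowest. Slc12a2 had 102 and 110 CPM in D50A 1 and D50A 3 and 147 to 153 CPM in D50A 2, 4 and 5, and 139 to 142 CPM in the WT libraries. The ratio of Slc12a5 to Slc12a2 CPM was 6.87, 4.04, 0.691, 3.13 and 3.21 in D50A 1 to 5, against 5.05, 4.3 and 4.09 in WT 1 to 3. D50A 1 gave the highest and D50A 3 the lowest ratio, so D50A spanned WT on both sides. Without D50A 1 and D50A 3 the log2 fold change was -0.26 ± 0.09 (SE) for Slc12a5 and 0.12 ± 0.06 (SE) for Slc12a2 (edgeR adjusted p = 0.0868 and 0.23).

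The members that were highest and lowest in D50A 1 differed in base composition, and those in D50A 3 did so in part. Base composition was not part of how the members were chosen. Transcript GC content ran from 35.2% (Glra3) to 61.9% (Slc32a1) in the annotated principal transcripts. The 10 members with their lowest level in D50A 1, counted over all 8 libraries, had 35.2% to 44.2% GC, and the 6 with their highest level there had 48.4% to 61.9%. These are 38.5% and 23.1% of the members, beside 16.5% and 17.8% of all genes with their lowest and highest level in D50A 1. Over the 26 genes, Spearman's rho between GC content and the deviation of D50A 1 from the WT mean was 0.86, beside 0.67 over 12438 genes. In D50A 3 the order was turned round, with a rho of -0.67 over the 26 genes and -0.28 over all. There the GC ranges overlapped, with 35.3% to 56.8% for the members highest in D50A 3 and 42.9% to 61.9% for those lowest there. For WT 1, WT 2 and WT 3, each compared with the remaining WT pair, rho over the 26 genes was 0.77, 0.056 and -0.72, with smaller deviations. Each WT library is part of the reference for the others, so these WT values depend on each other. Slc6a5 apart, the SD of the members' deviations on the log2 scale was 0.42 in D50A 1, 1.44 in D50A 3 and 0.18 to 0.22 in the other D50A libraries, against 0.097 to 0.13 in WT. Over all genes it was 0.24 in D50A 1, 1.38 in D50A 3 and 0.21 to 0.27 in the other D50A libraries, against 0.14 to 0.16 in WT. Transcript length followed the D50A 3 deviations with a rho of -0.22 over the 26 genes and -0.58 over all. Genes are not independent replicates, so these values describe the libraries.

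D50A 3 lay above the other 7 libraries for 8 members and below them for 13, and over all genes tested it was highest for 40% and lowest for 44.4%. The coding sequences below show the composition of the 2 members lowest and the 2 highest in D50A 3 relative to the WT mean. Each is the central 150 bases of the longest coding exon, in GENCODE M21 on mm10, given 5′ to 3′ on the gene's strand with every G and C in capitals. The Nlgn2 stretch (chr11:69825567-69825716, minus strand) was 64.7% GC and the Slc12a5 stretch (chr2:164979324-164979473, plus strand) was 58%. The Gabrg1 stretch (chr5:70754083-70754232, minus strand) was 46.7% GC and the Gabra4 stretch (chr5:71571887-71572036, minus strand) was 51.3%.
Nlgn2: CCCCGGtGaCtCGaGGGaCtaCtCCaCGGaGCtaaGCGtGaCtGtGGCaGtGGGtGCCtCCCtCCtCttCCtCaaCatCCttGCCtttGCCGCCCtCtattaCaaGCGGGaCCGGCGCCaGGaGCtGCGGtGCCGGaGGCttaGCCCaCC
Slc12a5: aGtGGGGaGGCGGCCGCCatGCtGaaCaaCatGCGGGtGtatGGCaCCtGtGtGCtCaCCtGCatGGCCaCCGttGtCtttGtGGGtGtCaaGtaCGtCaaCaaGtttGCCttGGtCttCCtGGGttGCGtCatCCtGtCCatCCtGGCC
Gabrg1: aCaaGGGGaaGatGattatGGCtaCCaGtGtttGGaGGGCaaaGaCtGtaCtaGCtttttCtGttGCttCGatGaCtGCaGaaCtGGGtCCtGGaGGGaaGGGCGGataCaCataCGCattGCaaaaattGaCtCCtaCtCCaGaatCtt
Gabra4: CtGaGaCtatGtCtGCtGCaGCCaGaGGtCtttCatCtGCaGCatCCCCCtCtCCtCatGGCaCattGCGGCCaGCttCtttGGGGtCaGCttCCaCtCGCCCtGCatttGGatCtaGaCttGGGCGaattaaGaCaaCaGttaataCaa
The whole transcripts were 60.7% GC for Nlgn2, 58.3% for Slc12a5, 35.3% for Gabrg1 and 42.2% for Gabra4. Nlgn2 and Slc12a5 were 11.8-fold and 8.28-fold below the WT mean in D50A 3, whereas Gabrg1 and Gabra4 were 3.06 and 2.39 times that mean. Of the 10 members with at least 50% GC, 9 lay below the WT mean in D50A 3, and Gabrd, at 56.8% GC, was at 1.98 times that mean. Of the 12 members under 45% GC, 5 lay below the WT mean in D50A 3 and 7 above it. The part of base composition in any of these values was not tested.

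**Figure D4:**
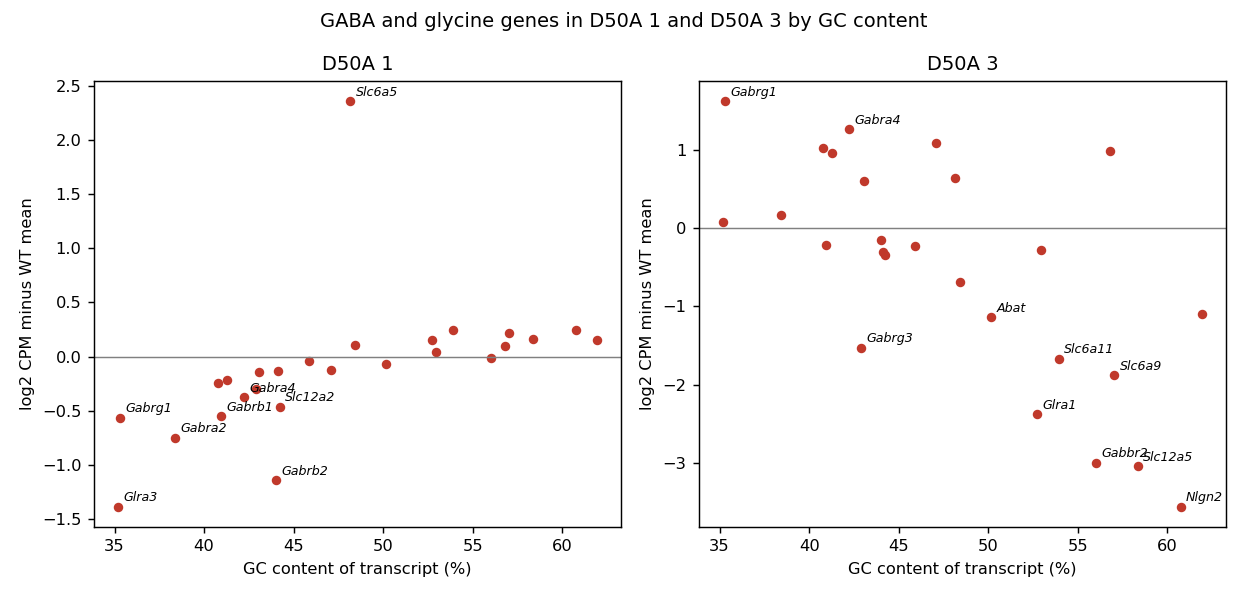
Each point is 1 of the 26 genes, with the GC content of its principal transcript in percent on the horizontal axis and log2 CPM minus the WT mean on the vertical axis, for D50A 1 (left) and D50A 3 (right). GC-poor genes lie low in D50A 1 (rho 0.86) and most GC-rich genes lie low in D50A 3 (rho -0.67); Slc6a5 lies above the trend in D50A 1 at 2.36.

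Other genes of the pathway were taken from a list of 47 further receptor subunits, transporters, enzymes and receptor-associated proteins, of which 44 were tested. edgeR called 0 of them, with a median log2 fold change of -0.13, 17 positive and 27 negative. Gabrr2, Gabra6 and Slitrk3 were among those with the smallest unadjusted p. Gabrr2, a rho subunit gene, was at 0.568 ± 0.116 CPM in D50A (SD, n = 5) and 1.2 ± 0.202 CPM in WT (SD, n = 3), a log2 fold change of -1.03 ± 0.24 (SE; edgeR adjusted p = 0.837). Gabra6, which is in the granule cell marker list as well, had 0, 53.2, 108, 108 and 103 CPM in D50A 1 to 5, against 0, 0.304 and 0.119 CPM in WT. Slitrk3, a synaptic adhesion gene, was at 49.3 ± 9.72 CPM in D50A and 63 ± 1.38 CPM in WT. Without D50A 1 and D50A 3, edgeR called 4 of the 44, where it called 6.42% of all genes: Gabra6 rose, and Slc38a3, Shisa7 and Iqsec3 fell, by 0.32, 0.36 and 0.27 on the log2 scale.

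The remaining marker lists held 0 genes called by edgeR over all libraries. Purkinje cell markers (7 of 7 tested) summed to 1085, 966, 1169 and 1290 CPM in D50A 2 to 5 with 675 CPM in D50A 1, beside 755 to 820 CPM in the WT libraries, and 7 of 7 were called higher without D50A 1 and D50A 3. The same fit called 2 cortical markers lower (Tbr1 and Cux2), 1 oligodendrocyte marker higher (Mobp) and 1 microglia marker lower (Cx3cr1). Cortical excitatory markers (6 of 6 tested) summed to 566 CPM in D50A 3 and 1159 to 1437 CPM in the other D50A libraries, against 1370 to 1443 CPM in WT. Oligodendrocyte markers (6 of 6 tested) summed to 15160 CPM in D50A 3 and 6219 to 6730 CPM in the other D50A libraries, against 5711 to 6014 CPM in WT. Microglia markers (6 of 6 tested) summed to 442 CPM in D50A 3 and 205 to 248 CPM in the other D50A libraries, against 229 to 236 CPM in WT. By smallest unadjusted p, the leading genes included Ppp1r17, Slc1a6, Car8 and Pcp2 for Purkinje cells, Cbln1, Fat2, Cbln3 and Gabra6 for granule cells, and Pvalb, Npy, Lhx6 and Sst for forebrain GABA neurons. They also included Tbr1, Slc17a7 and Cux2 for cortical neurons, Syt1, Stmn2, Snap25 and Rbfox3 for all neurons, S100b, Aldoc, Slc1a2 and Gfap for astrocytes, Mobp, Mog and Cnp for oligodendrocytes, and P2ry12, C1qa and Cx3cr1 for microglia.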

How the data were processed

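Read counts per gene were deposited by the authors with no normalization, in 1 table. The submitters' processing notes list STAR 2.5, HTSeq 0.6.1, CASAVA 1.8, DESeq2 2 and the build mm10, with no order. The sources used here name neither the annotation counted nor the strand setting. Exons of 7 of the 26 members overlap exons of another annotated gene, all on the opposite strand, among them 46 bases shared by Gabra4 and Gabrb1, 1429 by Slc6a9 and Ccdc24 and 697 by Slc32a1 and Gm14205. A processed pseudogene of Gad1 is also in the table, so those counts are less certain.

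Groups follow the genotype label. All genes were tested with edgeR 4.0.16 (R 4.3.3), quasi-likelihood test, after filterByExpr and TMM scaling, with no covariate, Benjamini-Hochberg adjustment and a threshold of 0.05. The SE is the log2 fold change over the square root of F. CPM divides by the TMM-scaled library size; a prior count of 2 was added before logs. CPM per kilobase divides by the merged exon length in GENCODE M21 (mm10). GC content and length are those of the APPRIS principal transcript, or the longest, and trends over all genes used a mean log2 CPM above 2. Alternatives used DESeq2 1.42.0, limma 3.58.1 (voom with quality weights), other scaling and filters, the granule cell score as a covariate and libraries left out. edgeR, DESeq2 and limma-voom, but not the fit with a covariate, were tried on simulated counts. Named genes are all 26 members, the 4 genes with the smallest p in each other list, and list genes that touch a result, except some list genes that are not reported here; the 3 further pathway genes and Aqp4, called without D50A 1 and D50A 3, were named after their values were seen. The members, lists and left-out libraries were chosen with earlier results of these data known.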

Additional observations from a re-analysis of the deposited data

Results flagged for a closer look

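D50A 3 stood apart from the other 4 D50A libraries for 10 of the 26 genes, by a gap test within the group at the 95% level (Dixon's ratio above 0.71 for 5 values). Chance flags about 5% of groups, and these genes share 1 library. Over all genes tested, that library was the highest for 40% and the lowest for 44.4%. The share of all genes that the gap test flags is not given here, so the 10 are not shown to be an excess. Of the 10, 6 were high in D50A 3: Gabra3 at 188 CPM, Gabra4 at 321 CPM, Gabra5 at 118 CPM, Gabrg1 at 120 CPM, Glra2 at 35 CPM and Glrb at 429 CPM. The other 4 were low there: Abat at 152 CPM, Slc6a9 at 10.2 CPM, Gabrg3 at 15.3 CPM and Gabbr2 at 40.9 CPM.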

How the results depend on the processing

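Over 16 alternatives for each of the 26 genes, 366 of 416 log2 fold changes kept their direction and their side of the threshold, 5 passed it (Slc6a5 in DESeq2, in limma-voom and without D50A 1 and D50A 3; Gabrd in the last 2 of these), and 45, in 16 genes, changed sign at sizes up to 0.28. No member was called with other scaling, other filters, the covariate or 1 library left out. Members called numbered 1 in DESeq2, 2 in limma-voom and 2 without D50A 1 and D50A 3. Pathway genes called numbered 1, 1 and 4 in the same fits, and 0 to 1 with 1 library left out. All genes called numbered 37, 517 and 1065, and 0 to 26 with 1 library left out, 26 being without D50A 1. With the granule cell score as a covariate the changed log2 fold changes were Gad1 0.047, Slc32a1 0.059, Slc6a11 0.11, Slc6a9 0.069, Gabra3 -0.034, Gabra4 -0.13, Gabrg1 -0.24, Gabbr1 0.015, Glra1 0.014, Glra2 -0.029, Glrb -0.091 and Nlgn2 0.052. In that fit the log2 fold changes of Glra3 (-1.37), Gabrb2 (-1.12), Gabra2 (-0.67), Gabrb1 (-0.56) and Slc12a2 (-0.49) kept their sign but grew by over 1.5 times. Those of Abat (-0.17), Gabra5 (0.086), Gabrd (0.20), Gabbr2 (-0.19), Gphn (-0.050) and Slc12a5 (-0.016) kept their sign but shrank by over 1.5 times. In limma-voom the log2 fold changes that changed sign were Slc6a9 0.050, Gabra3 -0.096, Gabra4 -0.067, Gabra5 -0.17, Gabrb2 0.058, Gabrg1 -0.091, Glra1 0.15, Glra2 -0.16 and Slc12a2 0.070. Without D50A 1 and D50A 3 they were Slc6a9 0.075, Gabra3 -0.080, Gabra4 -0.045, Gabra5 -0.15, Gabrb2 0.13, Gabrg1 -0.050, Glra1 0.28, Glra2 -0.15, Glra3 0.047 and Slc12a2 0.12. With DESeq2 size factors it was Glra1 0.0053. With 1 library left out the ranges were -0.22 to 0.11 for Slc6a9, -0.096 to 0.14 for Gabra3, -0.12 to 0.42 for Gabra4, -0.15 to 0.29 for Gabra5, -0.21 to 0.074 for Gabrb2, -0.17 to 0.60 for Gabrg1, -0.19 to 0.24 for Glra1, -0.16 to 0.23 for Glra2, -0.35 to 0.056 for Glra3 and -0.14 to 0.019 for Slc12a2. The cause was not tested. No paired analysis was possible because each animal number occurs in 1 group only. Few counts limit Slc6a5 in WT (11 to 26) and Glra1 in D50A 3.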
